A study of Mus musculus with 6 samples.

Results

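A set of 10 genes covers the osteoclast and the signal that makes it, and these genes were followed here in the cochlea of young and old mice. They were taken by name, after the FPKM values (fragments per kilobase of transcript, scaled to sequencing depth) of all transcripts of a gene had been summed, and all 10 were among the 25823 genes of the table. They are 7 genes of the osteoclast itself (Acp5, Ctsk, Mmp9, Calcr, Ocstamp, Dcstamp and Atp6v0d2) and 3 of the signal (Tnfsf11, Tnfrsf11a and Tnfrsf11b). The young group was 3 samples from C57BL/6 mice at 1 month of age, and the old group was 3 samples from mice of the same strain at 12 months. The labels name no transgene and no agent, each sample was a mixture of tissue from 3 mice, and the sources used here do not give the sex. The mice of this strain lose hearing early, so that age, postnatal maturation and hearing loss cannot be told apart in this comparison.

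Osteoclasts are the large cells with several nuclei that dissolve bone. They form when precursors of the monocyte line receive M-CSF (Csf1) and RANKL (Tnfsf11), the ligand that binds the receptor RANK (Tnfrsf11a) on the precursor. Osteoprotegerin (Tnfrsf11b) is a secreted decoy receptor that captures RANKL before it reaches RANK. The bone around the inner ear, the otic capsule, is known for being remodelled very little, and osteoprotegerin made in the inner ear is known to protect it. Mice without osteoprotegerin remodel this bone and lose hearing.

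The tissue taken for RNA was, by the labels, the basilar membrane of the cochlea. Markers of the cochlea were present in all samples, and the most abundant were Coch and Otos, which are made by fibrocytes of the spiral ligament, with 5303 to 9242 FPKM for Coch. The summed FPKM of 12 neutrophil and marrow genes was 448.9 in young replicate 1 and between 12.2 and 86.8 in the other samples, and young replicate 1 had the highest value for 11 of these 12 genes, for 8 of 8 erythroid genes and for 10 of 14 osteoblast and osteocyte genes. All 6 muscle genes were highest in old replicate 1 (summed FPKM 16.6 against 0.406 to 3.87 elsewhere). The steps between low FPKM values corresponded to 12420000 to 15410000 fragments per sample, and fragment numbers given below were estimated from these steps. Intervals on them cover counting error only.

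Promoter sequences of the members on which the results below turn were read from RefSeq (GRCm38.p6), which held 8 promoters for 5 of the 10 genes. Each is shown as the 250 bases before the start site, 5′ to 3′ on the strand of the gene. Acp5 is shown with both start sites near its expressed transcripts, because these transcripts differ in where they begin. Its upstream RefSeq start lies 50 nt before that of the transcript in the table. Ctsk and Tnfsf11 are shown because they are the members whose age groups did not overlap. Capitals mark matches on either strand to TCATGTG (the M-box bound by MITF and TFE factors), GAGGAA (the core of PU.1 sites), TGANTCA (AP-1), GGAAAA (the core of NFAT sites) and TATAAA (the TATA box).
Acp5, downstream start, chr9:22130599-22130848, minus strand: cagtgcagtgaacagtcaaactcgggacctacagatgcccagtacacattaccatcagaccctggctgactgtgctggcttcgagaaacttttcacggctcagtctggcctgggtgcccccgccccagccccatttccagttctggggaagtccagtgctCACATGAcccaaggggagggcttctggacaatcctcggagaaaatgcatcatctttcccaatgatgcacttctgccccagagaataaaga
Acp5, upstream start, chr9:22131866-22132115, minus strand: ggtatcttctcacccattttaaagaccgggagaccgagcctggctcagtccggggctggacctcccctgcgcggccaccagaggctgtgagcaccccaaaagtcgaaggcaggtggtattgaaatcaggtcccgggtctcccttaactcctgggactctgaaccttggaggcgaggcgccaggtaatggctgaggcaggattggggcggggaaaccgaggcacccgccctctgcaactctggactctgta
Ctsk, chr3:95498960-95499209, plus strand: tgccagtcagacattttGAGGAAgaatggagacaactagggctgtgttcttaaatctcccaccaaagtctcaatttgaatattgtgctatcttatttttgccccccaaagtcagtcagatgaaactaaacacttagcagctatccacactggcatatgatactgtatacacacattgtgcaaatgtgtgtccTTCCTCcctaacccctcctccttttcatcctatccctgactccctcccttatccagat
Tnfsf11, chr14:78308044-78308293, minus strand: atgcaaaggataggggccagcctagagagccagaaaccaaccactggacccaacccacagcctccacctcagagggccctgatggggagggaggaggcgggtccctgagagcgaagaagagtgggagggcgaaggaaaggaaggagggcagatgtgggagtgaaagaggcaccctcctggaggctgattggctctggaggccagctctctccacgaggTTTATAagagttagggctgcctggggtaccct
The Acp5 promoter of the downstream start held 1 M-box, as CACATGA on the printed strand, from -90 to -84 relative to the start site. Of the 32851 RefSeq promoters of this length, 3.25% held an M-box. The upstream start of Acp5 held none of the 5 motifs in this window. Ctsk held the PU.1 core on each strand, a motif present in 23.3% of promoters, and Tnfsf11 held a TATA box on the opposite strand at -32 to -27, a motif present in 12.4%. The AP-1 and NFAT letters, found in 6.75% and 20.4% of promoters, were in none of the 4 windows printed. These matches are letters in a window and no measurement of binding.

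The question put to the sequencing table was which members differed with age. Of the 10 members, 7 reached a mean of 0.1 FPKM over the 6 samples and were tested with limma on log2(FPKM + 0.1) together with 19649 genes. None of these 7 passed an adjusted p of 0.05 in either direction, where 9.09% of all genes tested passed, 5.41% as higher and 3.68% as lower with age. The count of members with an unadjusted p under 0.05 was also 0. The median log2 change of the 7 members was 0.019 and that of all genes tested was 0.0087. The old group lay wholly above the young group for 1 member, Tnfsf11, and wholly below it for 1 member, Ctsk, against 17.5% and 16% of all genes tested. Calcr, Ocstamp and Dcstamp stayed below the filter. The absence of a call does not show that the levels were equal, and the intervals given below say how large a change was still possible.

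**Figure D1:**
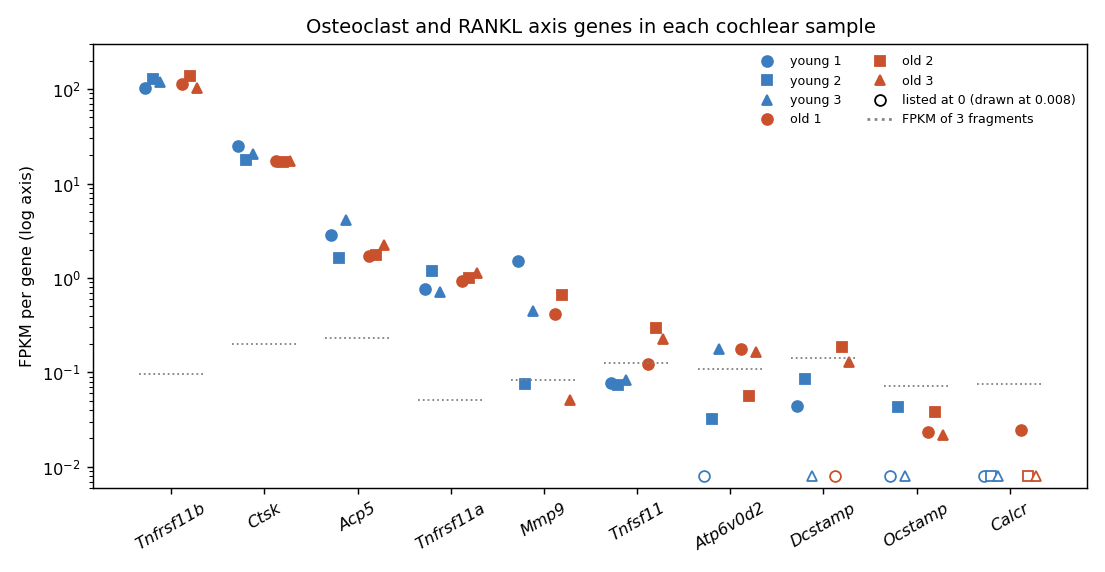
FPKM of each member (log axis) in the 3 young and 3 old samples, 1 point per sample, with open symbols for values listed at 0 and a dotted line at the highest FPKM that 3 fragments correspond to in any sample. Tnfrsf11b lay between 101.9 and 136.3 FPKM and Ctsk between 16.9 and 25.2 FPKM, while Calcr, Ocstamp and Dcstamp stayed at 0.186 FPKM or less.

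Of the 3 genes of the signal, the decoy receptor was by far the most abundant. Tnfrsf11b (ENSMUSG00000063727, chromosome 15 of GRCm38 from 54250619 to 54278484, minus strand, 5 exons) was at 101.9, 126.4 and 119.0 FPKM in young replicates 1, 2 and 3 and at 113.2, 136.3 and 103.2 FPKM in the old ones. The groups overlapped fully, and only 634 genes had a higher mean over the 6 samples. Young samples averaged 115.8 ± 12.6 FPKM and old samples averaged 117.6 ± 17.0 FPKM (SD, n = 3 each). On the log2 scale the difference was 0.02 (SE 0.12, adjusted p = 0.940 by limma). The 95% interval of the change ran from -0.27 to 0.30, which is 0.831 to 1.23 times the young level. The small positive sign turned under quantile normalization (-0.068), without young replicate 1 (-0.070) and without old replicate 2 (-0.093), so that no direction is given for Tnfrsf11b.

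Tnfrsf11a, the receptor RANK that osteoclast precursors carry, was near 1 FPKM. Its gene (ENSMUSG00000026321, chromosome 1 from 105780718 to 105847981, plus strand) was at 0.761, 1.17 and 0.709 FPKM in young and at 0.938, 0.993 and 1.14 FPKM in old samples, from 42.1 to 76.2 estimated fragments per sample. The highest value of all was in young replicate 2, and the groups overlapped. The log2 change was 0.22 (SE 0.29, 95% interval -0.45 to 0.89, limma adjusted p = 0.655). Of 14 macrophage markers, 10 rose with age, a count that was 1 without old replicate 2, and the summed FPKM of the 14 went from 129.3 to 199.2 in young samples to 698 to 784.2 in old samples, with none of the 14 at 0 in all samples. Their part in the level of Tnfrsf11a was not tested. Since the tissue was sequenced in bulk, fewer cells of a type and less RNA per cell cannot be told apart here or for any gene below.

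Tnfsf11, which encodes RANKL and is made in bone mainly by osteocytes and other cells of the osteoblast line, was detected at a very low level. Its gene (ENSMUSG00000022015, chromosome 14 from 78277445 to 78308043, minus strand) was at 0.0772, 0.0741 and 0.0823 FPKM in young samples, estimated from 1.97, 1.97 and 2.00 fragments. In old samples it was at 0.123, 0.293 and 0.228 FPKM, from 2.95, 8.93 and 5.96 fragments. The groups did not overlap, with the highest value in old replicate 2 and the lowest old value 1 fragment above the young ones. The mean was 2.76 times higher in old mice, from 18 fragments (95% Poisson interval 10.7 to 28.4) against 6 (2.20 to 13.1). On the log2(FPKM + 0.1) scale, which understates changes of such low values, the change was 0.78 (SE 0.50, 95% interval -0.39 to 1.96, limma adjusted p = 0.362). It was 1.27 with a pseudocount of 0.01 and 0.17 with a pseudocount of 1. The exact permutation test over samples gave p = 0.1 (two-sided), the smallest p that 3 samples against 3 allow. The difference was thus not past the threshold over the spread between samples, and each young value rests on about 2 fragments.

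The level of ligand relative to decoy was then read within each sample. For every 1000 FPKM of Tnfrsf11b there were 0.758, 0.586 and 0.691 FPKM of Tnfsf11 in young samples and 1.08, 2.15 and 2.21 FPKM in old samples. The mean ratio in old mice was 2.67 times that in young mice, and 2.38 to 3.21 times with any 1 sample left out. Osteoprotegerin transcripts thus outnumbered RANKL transcripts per length by 453 to 1707 times in every sample. The numerator rests on the few fragments given above, and the ratio carries no test.

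**Figure D2:**
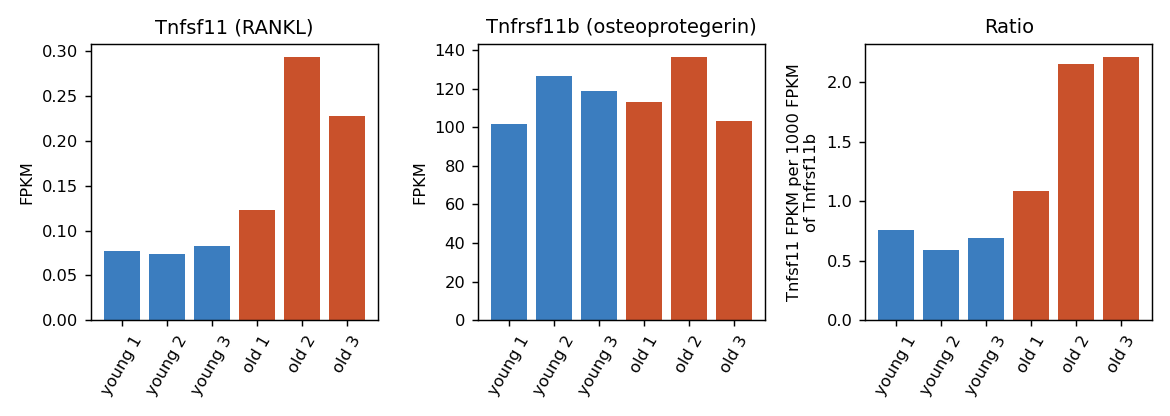
Bars give the FPKM of Tnfsf11 and of Tnfrsf11b and the FPKM of Tnfsf11 per 1000 FPKM of Tnfrsf11b in each young (blue) and old (red) sample, on axes that start at 0. The ratio lay at 0.586 to 0.758 in young and 1.08 to 2.21 in old samples, while Tnfrsf11b overlapped between the ages.

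Acp5 encodes tartrate-resistant acid phosphatase, the enzyme by which osteoclasts are stained and which macrophages also make. Its gene (ENSMUSG00000001348, chromosome 9 from 22126727 to 22135711, minus strand) was at 2.88, 1.64 and 4.07 FPKM in the young and at 1.72, 1.76 and 2.21 FPKM in old samples. Young replicates 1 and 3 were the highest of the 6, and young replicate 2 was the lowest of all. The log2 change was -0.49 (SE 0.33, 95% interval -1.25 to 0.28, limma adjusted p = 0.383). Leaving out young replicate 2 gave -0.83, leaving out young replicate 3 gave -0.19, and the change did not pass the threshold in either case (adjusted p = 0.128 and 0.719).

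The FPKM of Acp5 came from transcripts that begin at different places. ENSMUST00000069330 begins at 22131815 and ENSMUST00000115315 begins 1217 nt further downstream at 22130598, the downstream start printed above, and the other listed transcript, ENSMUST00000165735, was at 0 in all samples. The longer-reaching ENSMUST00000069330 was at 0.630, 1.31 and 1.81 FPKM in young and at 1.72, 1.76 and 1.83 FPKM in old samples. ENSMUST00000115315 was at 2.25, 0.325 and 2.26 FPKM in young samples, and it was listed at 0 in old replicates 1 and 2 and at 0.389 FPKM in old replicate 3. The downstream transcript made up 78.1, 19.9 and 55.5% of the Acp5 signal in young replicates 1, 2 and 3 and 17.5% in old replicate 3. The shares of the age groups did not overlap, but only by the narrow gap between young replicate 2 (19.9%) and old replicate 3 (17.5%). This gap rests on the few assigned fragments given below. How often such shares do not overlap in other genes was not tested. The FPKM of the downstream transcript did overlap between the age groups. For the downstream transcript the log2 change was -2.97 (SE 0.98, limma adjusted p = 0.198 over all transcripts tested), and for the other it was 0.58 (SE 0.41, adjusted p = 0.531). The sum over the gene therefore had the opposite sign to its most abundant transcript.

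The split between these transcripts rests on little sequence. They differ in the first exon and in a few bases at the 3′ end, so that only 76 of the 1349 nt of ENSMUST00000115315 and 83 of the 1356 nt of ENSMUST00000069330 are not shared. The downstream transcript was assigned 31.3, 4.70 and 29.8 fragments in young samples and 5.5 in old replicate 3, of 22.6 to 53.8 for the whole gene per sample. Fragments from the shared sequence were divided between the transcripts by the authors' software, so that the numbers per transcript are estimates. In the same samples Ibsp, a matrix protein of osteoblasts, was at 22.9, 6.36 and 12.5 FPKM in young replicates 1, 2 and 3 and at 1.43 to 2.25 FPKM in old samples. The part of these cells in the result was not tested.

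**Figure D3:**
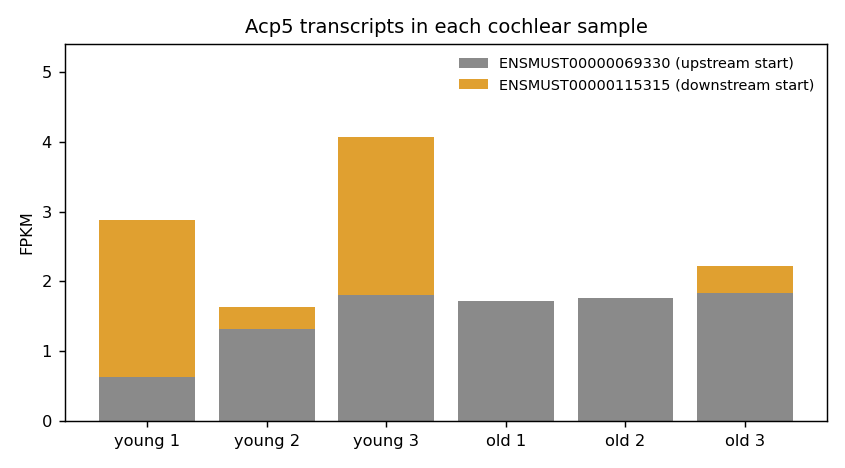
Stacked bars give the FPKM of the Acp5 transcripts with the upstream start (grey) and the downstream start (yellow) in each sample. The downstream transcript reached 2.25 and 2.26 FPKM in young replicates 1 and 3, 0.325 FPKM in young replicate 2, and 0.389 FPKM or less in old samples.

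Ctsk encodes cathepsin K, the protease with which osteoclasts digest bone collagen and which some fibroblasts also make. It was the most abundant of the 7 osteoclast genes (ENSMUSG00000028111, chromosome 3 from 95499256 to 95509362, plus strand, 8 exons). It was at 25.2, 17.7 and 20.6 FPKM in the young and at 17.2, 16.9 and 17.2 FPKM in old samples, from 258.2 to 403.3 estimated fragments. Every old sample lay below every young one, with young replicate 2 at 17.7 FPKM the nearest to the highest old sample. The mean went from 21.1 ± 3.77 FPKM (SD, n = 3) to 17.1 ± 0.172 FPKM (SD, n = 3), 0.808 times the young level. The log2 change was -0.29 (SE 0.13, 95% interval -0.59 to 0.01, limma adjusted p = 0.193), and the exact permutation test gave p = 0.1, the smallest possible. Without young replicate 1 the log2 change was -0.16 and without young replicate 2 it was -0.41 (adjusted p = 0.381 and 0.108).

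Of the 14 osteoblast and osteocyte genes, all tested, 3 fell with age (Col1a2, Ibsp and Sp7) and none was called as higher, with a median log2 change of -1.39. The log2 change was below 0 for 13 of them and above 0 for 1, Alpl. This osteoblast gene was at 18.3, 9.14 and 14.8 FPKM in young and at 22.0, 19.2 and 20.2 FPKM in old samples. Its log2 change was 0.59 (SE 0.23, limma adjusted p = 0.151), and its age groups did not overlap. All old samples lay above all young ones for 17.5% of all genes tested. The count that fell was 7 without young replicate 2 or with sample weights, 6 at a mean FPKM of at least 1, 5 with short or non-coding transcripts left out, and 1 without any 1 of the old samples. Their summed FPKM, carried mostly by Spp1 and Sparc, was 6839, 6094 and 6708 in young replicates 1, 2 and 3. It was 5069, 5323 and 5640 in old replicates 1, 2 and 3. The young samples stood in the order that Ctsk had, and the old samples did not. Col1a2, a chain of the main bone collagen, fell from 72.9 ± 20.3 to 18.7 ± 1.51 FPKM (SD, n = 3; limma adjusted p = 0.00726), also with each sample left out. Ibsp fell from 13.9 ± 8.37 to 1.92 ± 0.431 FPKM (adjusted p = 0.0207), a call lost without old replicate 1, 2 or 3 (adjusted p = 0.0636, 0.0696 and 0.0575). Sp7, the osteoblast transcription factor osterix, fell from 1.13 ± 0.180 to 0.432 ± 0.0925 FPKM (adjusted p = 0.0490), a call lost with any 1 sample left out (adjusted p up to 0.146). The part of bone cells in the Ctsk values was not tested.

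Mmp9 encodes gelatinase B, a matrix protease that osteoclasts and neutrophils both make. Its gene (ENSMUSG00000017737, chromosome 2 from 164940780 to 164955850, plus strand) was at 1.51, 0.0749 and 0.444 FPKM in the young and at 0.413, 0.660 and 0.0513 FPKM in old samples. The highest and the second lowest value were both in young samples, and the groups overlapped fully. The log2 change was -0.46 (SE 0.92, 95% interval -2.62 to 1.70, limma adjusted p = 0.781), and it was 0.34 without young replicate 1 and 0.22 without old replicate 3, so that no direction is given. The summed FPKM of the neutrophil and marrow list was 448.9, 12.2 and 30.4 in young replicates 1, 2 and 3 and 86.8, 48.5 and 15.3 in the old ones. Young replicate 1 was highest and young replicate 2 and old replicate 3 were lowest for both. All 12 genes of that list were detected and 0 were called, and its most abundant members, S100a8 and S100a9, were at 227.9 and 158.6 FPKM in young replicate 1 and at no more than 36.4 and 27.5 FPKM elsewhere. The part of these cells in the Mmp9 values was not tested.

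**Figure D4:**
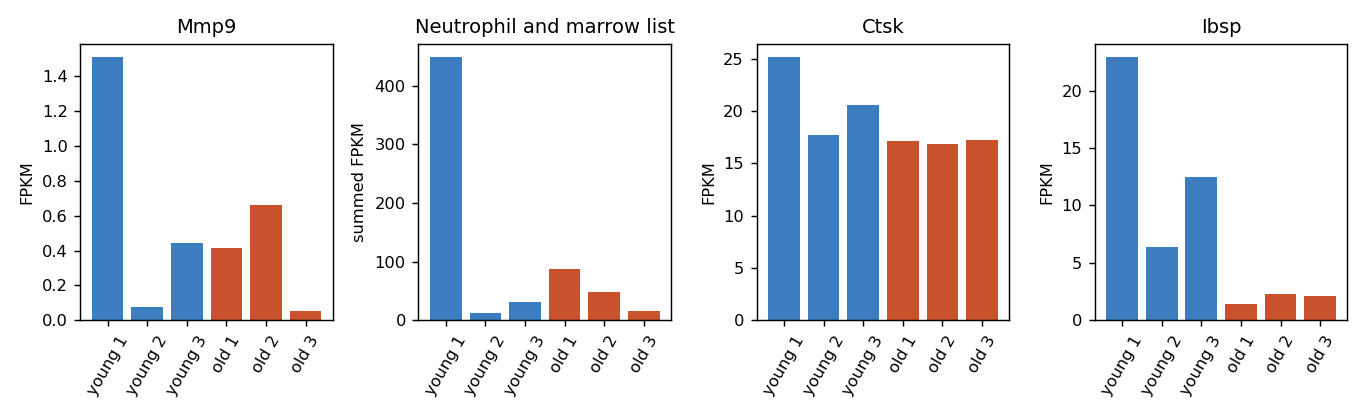
Bars give the FPKM of Mmp9, the summed FPKM of 12 neutrophil and marrow genes, the FPKM of Ctsk and the FPKM of the osteoblast gene Ibsp in each young (blue) and old (red) sample, with a separate axis from 0 for each. Young replicate 1 was the highest sample in all 4 panels.

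Atp6v0d2, the fusion genes Dcstamp and Ocstamp and the calcitonin receptor gene Calcr were at or below the edge of detection in both age groups. Atp6v0d2, a V-ATPase subunit that osteoclasts need for fusion (chromosome 4 from 19876841 to 19922605, minus strand), was listed at 0 in young replicate 1 and was at 0.0320 and 0.178 FPKM in young replicates 2 and 3. It was at 0.177, 0.0564 and 0.165 FPKM in old samples. This corresponds to 6 fragments in young samples (95% Poisson interval 2.20 to 13.1) and 12 in old samples (6.20 to 20.96). The groups overlapped, and the log2 change was 0.55 (SE 0.64, 95% interval -0.96 to 2.06, limma adjusted p = 0.623). Its broadly expressed paralog Atp6v0d1 was at 60.5 ± 1.93 FPKM in young and 56.3 ± 2.81 FPKM in old mice (SD, n = 3), with no call (adjusted p = 0.352 by limma).

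Dcstamp and Ocstamp encode the membrane proteins without which precursors do not fuse. Dcstamp (chromosome 15 from 39745932 to 39760938, plus strand) was at 0.0441, 0.0846 and 0 FPKM in young and at 0, 0.186 and 0.130 FPKM in old samples, in all 3 fragments against 8 (95% Poisson intervals 0.619 to 8.77 and 3.45 to 15.8). Ocstamp (chromosome 2 from 165393760 to 165400405, minus strand) was at 0.0428 FPKM in young replicate 2 and listed at 0 in the other young samples, and it was at 0.0236, 0.0377 and 0.0220 FPKM in old samples. This is 2 fragments against 4 (intervals 0.242 to 7.22 and 1.09 to 10.2). Both genes thus had some fragments in both ages, and their counting intervals overlapped. Ocstamp in all samples and Dcstamp in the young ones stayed below the FPKM that 3 fragments correspond to.

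Calcr encodes the calcitonin receptor, through which the hormone calcitonin stops osteoclasts and which is a marker of the mature cell. Of its 5 transcripts in the table, 4 were listed at 0 in all samples. The gene (chromosome 6 from 3685680 to 3764714, minus strand) was at 0.0245 FPKM in old replicate 1, from 1 estimated fragment, and was listed at 0 in the other 5 samples. By the one-sided bound for a count of 0, up to 3 fragments remain possible, which is 0.0598 to 0.0751 FPKM for this gene in these samples. No fold change is given for Calcr, Ocstamp or Dcstamp. None of 10 genes that every cell uses, such as Actb and Tbp, was listed at 0 in any sample. The osteoclast label is given to the members by their known function, which was not tested here. Calcr, Ocstamp, Dcstamp and Atp6v0d2 were at or near 0 in this tissue. Ctsk and Acp5, which other cells also make, were detected in every sample, at 16.9 to 25.2 and 1.64 to 4.07 FPKM.

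**Figure D5:**
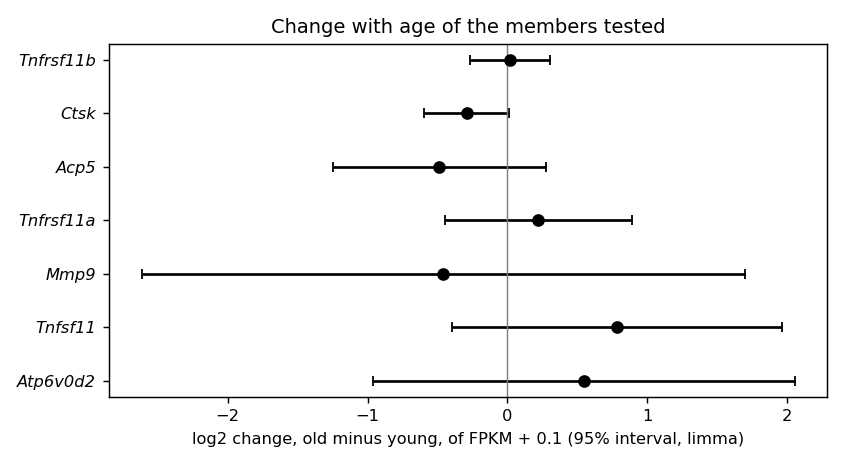
Points give the log2 change (old minus young) of the 7 members tested, ordered by mean level, and bars give the 95% interval from limma. All 7 intervals include 0, and they are narrowest for Tnfrsf11b (-0.27 to 0.30) and widest for Mmp9 (-2.62 to 1.70).

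The partners of the members were read from 4 lists with 70 genes, of which 63 were tested. In these lists 9 genes rose and 1 fell with age, together 15.9% against 9.09% of all genes. The count of genes that rose was 5, 4 and 7 without young replicates 1, 2 and 3 and 3, 1 and 1 without old replicates 1, 2 and 3. It was thus not stable when a sample was left out. Over all genes the count that rose was also lower in each of these fits, at 44 to 935 against 1063. In the 4 lists the count that fell was 0 in these fits except without young replicate 3, where it was 1.

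The co-stimulatory and M-CSF genes, through which precursors survive and respond to RANKL, held most of the genes that rose, 5 of 14 tested, with none lower and a median log2 change of 0.36. Csf1r, the receptor for M-CSF, was at 11.2, 6.78 and 8.27 FPKM in young and at 18.7, 22.1 and 20.5 FPKM in old samples. It rose by 1.24 on the log2 scale (SE 0.18, limma adjusted p = 0.0151), a call lost without old replicate 2 or 3 (adjusted p = 0.0664 and 0.0520). Csf1, which encodes M-CSF, rose from 3.17 ± 0.618 to 5.82 ± 0.978 FPKM (SD, n = 3; adjusted p = 0.0436), a call kept only without young replicate 3 among the fits that left out a sample (adjusted p up to 0.146).

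Of the adaptors and receptors in this list, Tyrobp, Trem2 and Fcer1g were called, while the receptors Oscar, Pira2 and Siglec15 stayed below the filter and were not tested. Oscar averaged 0.136 FPKM in the young and 0.0576 FPKM in the old group. Tyrobp, the adaptor DAP12, rose from 16.8 ± 7.35 to 57.9 ± 7.09 FPKM (adjusted p = 0.0168), a call lost without old replicate 2 or 3 (adjusted p = 0.0696 and 0.0553). Trem2, a receptor that signals through it, rose from 3.33 ± 0.157 to 11.1 ± 1.57 FPKM (adjusted p = 0.00528), and it passed with each sample left out. Fcer1g, the other adaptor of this kind, rose from 4.57 ± 2.03 to 14.9 ± 6.16 FPKM (adjusted p = 0.0433), a call kept only without young replicate 1 when a sample was left out (adjusted p up to 0.130). Macrophages express Csf1r, Tyrobp, Trem2 and Fcer1g too. Of the macrophage list, 10 of 14 genes rose and none fell, with a median log2 change of 1.70. This count was 1 without old replicate 2 (median 1.52), 7 to 9 without any other single sample, and 6 without the variance trend. Lyz2 led it with 72.7 ± 13.1 FPKM in young and 450.2 ± 56.3 FPKM in old mice (SD, n = 3), a call that held with each sample left out. C1qa, C1qb and C1qc, with Mpeg1, had the next smallest adjusted p (0.0116 for each). They passed in all of these fits except without old replicate 2 (adjusted p up to 0.0561).

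Inside the precursor, RANK signals through Traf6 to NF-kappaB, AP-1 and Nfatc1. Of these 17 genes, 1 rose and none fell (median log2 change 0.14). Fos, the AP-1 subunit without which osteoclasts do not form, was at 5.87, 1.51 and 1.19 FPKM in young and at 11.2, 10.4 and 11.6 FPKM in old samples. It rose by 2.27 on the log2 scale (SE 0.52, limma adjusted p = 0.0415) and passed only without young replicate 1 when a sample was left out (adjusted p up to 0.124). Nfatc1, the master regulator of the osteoclast programme, averaged 3.66 ± 0.433 FPKM in the young and 3.46 ± 0.385 FPKM in the old group (SD, n = 3). Its log2 change was -0.08 (SE 0.17, adjusted p = 0.794). Traf6 had a log2 change of 0.17 (adjusted p = 0.326), and Spi1, which encodes PU.1, had one of 1.06 with a wide spread (SE 0.55, adjusted p = 0.258).

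The genes for acid secretion and attachment, most of which many cell types use, held 1 of 16 that rose and 1 that fell (median log2 change -0.0054). Cd44, an adhesion receptor, rose from 15.2 ± 2.85 to 25.7 ± 1.60 FPKM (adjusted p = 0.0264), and Atp6v1b2, a V-ATPase subunit, fell from 79.5 ± 11.8 to 53.9 ± 1.80 FPKM (adjusted p = 0.0270). With a sample left out, Cd44 passed without young replicate 2 or 3 and Atp6v1b2 passed without young replicate 3, and neither did otherwise (adjusted p up to 0.0797 and 0.0916). Tcirg1, the V-ATPase subunit of the osteoclast border, was at 22.5 ± 1.79 and 31.9 ± 5.13 FPKM and just missed the threshold (adjusted p = 0.0512). Clcn7, the chloride transporter beside it, had a log2 change of 0.16 (limma adjusted p = 0.256). Itgb3, the beta chain of the osteoclast integrin, was at 1.02 ± 0.197 and 0.896 ± 0.0746 FPKM (adjusted p = 0.740).

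Of 20 genes that act on RANKL and osteoprotegerin, 16 were tested, 2 rose and none fell (median log2 change 0.10). Il6, a cytokine that raises RANKL, was listed at 0 in young replicate 1 and at 0.0351 and 0.0390 FPKM in the other young samples, and it was at 0.653, 0.532 and 0.547 FPKM in old samples (limma adjusted p = 0.0249). All old samples lay above all young ones, as they did for 17.5% of all genes tested. Estimated fragments, with short transcripts not counted, were 0, 0.987 and 1 in young and 4.90, 8.04 and 6.92 in old samples. Among the old samples, replicate 1 had the highest FPKM of Il6 but the fewest of these fragments. The size of the Il6 change in FPKM thus depends on which transcripts the fragments were assigned to. With the most abundant transcript of each gene, 0 genes of this list were called. The call of Il6 held only without young replicate 3 when a sample was left out (adjusted p up to 0.0946). It held in 9 of 11 other settings (adjusted p up to 0.295). Ctnnb1, beta-catenin of the Wnt pathway that raises osteoprotegerin, rose from 415.6 ± 24.1 to 500.3 ± 14.0 FPKM (adjusted p = 0.0477), a call lost with any 1 sample left out (adjusted p up to 0.130) and kept in 6 of 12 other settings.

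Of the other cell type lists, the erythroid list had 0 of 8 genes called and a median log2 change of -0.59, led by Hbb-bs with 791.5 to 1585 FPKM and Hba-a2 with 81.5 to 568 FPKM. The lymphocyte list, whose T cells can supply RANKL, had 1 of 8 tested genes called: Cd4, which macrophages can carry too, rose from 0.630 ± 0.327 to 2.90 ± 0.413 FPKM (adjusted p = 0.0227), a call lost without any 1 of the old samples (adjusted p up to 0.0780). The muscle list had 0 of 5 called, with Mylpf at 7.73 FPKM and Tnnt3 at 3.45 FPKM in old replicate 1 and at no more than 2.67 and 1.22 FPKM elsewhere. Of 16 cochlear markers, Otoa and Otog rose and Slc26a5, Coch and Ocm fell, with a median log2 change of -0.08. Slc26a5, the motor protein of outer hair cells, fell from 6.66 ± 1.30 to 3.02 ± 0.0588 FPKM. Each of these 5 calls was lost in at least 1 of the fits that left out a sample.

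As a description of which genes ran most like the members over the 6 samples, Pearson's r of log2(FPKM + 0.1) was taken against all other genes with a mean of at least 1 FPKM. With only 6 samples and 15073 or 15074 genes compared, values near 1 are common. Ctsk was most like Col1a1 (r = 0.993), a bone collagen gene at 24.9, 1.71 and 6.21 FPKM in young and 0.866 to 1.07 FPKM in old samples, then Thbs4 (0.983) and Uqcrb (0.982). Acp5 was most like Gm10644 (0.999), Atf6 (0.986) and Nrcam (0.978). Mmp9 was most like Gm16892 (0.987), Pigt (0.969) and Antxr2 (0.965). Tnfrsf11a was most like Tatdn1 (0.994), Cebpz (0.978) and Smarce1 (0.971), and Tnfrsf11b was most like LNC_000178 (0.991), Mcm8 (0.983) and Gm19967 (0.974).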

How the data were processed

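Cochlear tissue of 3 young and 3 old mouse pools was sequenced from directional libraries. The authors deposited 1 table of FPKM per transcript and sample, made by Cuffdiff (2.1.1) after alignment to GRCm38 and assembly with Cufflinks (2.1.1), and the submitters' processing notes also name TopHat2 (2.0.9) and CASAVA (1.8). The annotation release and the scaling between libraries are not given in the sources used here. From these values, transcripts were assigned to genes by GENCODE M21, in which 404 of 55679 Ensembl transcripts were not found, values below 0.001 FPKM were set to 0, and FPKM was summed per gene. The 19649 genes with a mean of at least 0.1 FPKM were compared with limma 3.58.1 in R 4.3.3 (eBayes with trend, age as the only term, two-sided, Benjamini-Hochberg over all genes tested, threshold 0.05) on log2(FPKM + 0.1). Cuffdiff itself needs reads, which were not used here. The code was tested on simulated data. Labels do not say whether samples of 1 age were bred or processed separately, so p-values measure the spread between pools.

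Depth was estimated from single-transcript genes of 1000 to 4000 nt, whose low values fell within 0.1 of a whole number of fragments in 93.6 to 95% of cases. Scaling, pseudocount, filter, trend, weights, a replicate block, each sample left out and the choice of transcripts were varied. The members and lists were chosen with earlier results of these data known. Named are all 10 members, fixed partners, from each list up to 4 called genes with the smallest adjusted p (or the 2 most abundant where none was called), and the 3 most alike genes of 5 members. Some genes outside this rule were also named with their values known, among them Alpl, Otog, Sost, Dkk1, Oscar and Tnfsf10. Plots were drawn with matplotlib 3.10.9 in Python 3.11.15.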

Additional observations from a re-analysis of the deposited data

How the results depend on the processing

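No member passed the threshold in any fit that gave it a value under 18 other settings, with 119 member values recomputed and a lowest adjusted p of 0.108. Of these values 113 kept their direction. The other 6 were Acp5 from its most abundant transcript (0.58), Mmp9 without young replicate 1 (0.34) or old replicate 3 (0.22), and Tnfrsf11b under quantile normalization (-0.068) and without young replicate 1 (-0.070) or old replicate 2 (-0.093). With 1 sample left out, Mmp9 ranged from -1.27 to 0.34 and Tnfrsf11b from -0.093 to 0.11. The counts over all genes (1063 higher, 724 lower) and over the 4 pathway lists (9 higher, 1 lower) were less stable. Without the variance trend they were 271 and 121, and 2 and 0. The pathway counts were 5 higher without a filter, and 2 lower with a pseudocount of 1, quantile normalization or sample weights. The most abundant transcript of each gene gave 4 higher and 2 lower, and leaving out short or non-coding transcripts gave 10 and 2. With 1 sample left out they ranged from 44 to 935 higher and 15 to 821 lower over all genes, and from 1 to 7 higher and 0 to 1 lower in the pathway lists. The fewest calls came without old replicate 2. Of the genes called, 53% were higher under quantile normalization against 59.5%. The causes were not tested. At a mean FPKM of at least 1, Mmp9, Tnfrsf11a, Tnfsf11 and Atp6v0d2 had no value, and Atp6v0d2 had none in 3 of the fits that left out a sample. Calcr, Ocstamp and Dcstamp had 0 to 8 fragments per age group, too few for a test. The adjusted p of Tnfsf11 was 0.112 without the variance trend.

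Samples of the 2 ages share replicate numbers, but the labels do not say that a number marks a shared batch. Deviations from the group means correlated at 0.031, -0.096 and 0.039 between samples of numbers 1, 2 and 3, so that the numbers were not taken as pairs. With a replicate block, 410 genes were higher and 265 lower over all genes and 4 were higher in the pathway lists, and no member was called.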

Other observations

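The place of the members within their gene families was looked at after their values had been seen, with FPKM compared per length and averaged over the 6 samples. Among 28 genes of the TNF receptor superfamily in the table, Tnfrsf11b had the highest mean, 116.7 FPKM or 30.4% of the family sum, ahead of Tnfrsf12a (91.7 FPKM), Tnfrsf21 (50.9 FPKM) and Ltbr (32.1 FPKM), and Tnfrsf11a was in place 18. The ligands stood in another order, with Tnfsf13 at 62.2 FPKM and Tnfsf11 at 0.146 FPKM. Tnfsf10, which encodes TRAIL, the other ligand that osteoprotegerin binds, was at 1.33 ± 0.151 FPKM in young and 1.97 ± 0.505 FPKM in old mice (SD, n = 3) and was not called (limma adjusted p = 0.226).

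Among 18 cathepsins, Ctsk was in place 9 with 1.21% of the family sum, and Ctsd (632.6 FPKM), Ctsb (230.0 FPKM) and Ctsl (228.2 FPKM) led. Among 23 matrix metalloproteinases, Mmp9 was in place 13 at 0.526 FPKM, below Mmp14 (33.4 FPKM), Mmp2 (22.7 FPKM) and Mmp15 (18.1 FPKM). Sost and Dkk1, inhibitors of Wnt signalling in bone, were at 2.98 ± 1.49 and 0.340 ± 0.197 FPKM in young and at 1.21 ± 0.184 and 0.0347 ± 0.0374 FPKM in old mice, and neither passed the threshold (limma adjusted p = 0.0787 and 0.112).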
